A study of Rattus norvegicus with 18 samples.

Results

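The effect of age on the repair of a broken femur was examined here between the 2 older age groups of a rat study, by setting the 5 arrays of older rats sampled at 3 days and at 1, 2, 4 and 6 weeks of repair against the 5 arrays of adult rats taken at the same times. These were 10 of the 18 arrays of the series, and were chosen by their age and time labels. All rats were intact female Sprague-Dawley animals, 26 weeks old in the adult group and 52 weeks old in the older group. Each of these rats carried an intramedullary rod in the left femur and a closed mid-diaphyseal fracture. RNA from 2 rats of 1 age and time was pooled on each array, and it came from the middle part of the femur with its callus, cortical bone and marrow. The level before fracture came from 1 array per age of rats without fracture, named the 0 time control. Because each age had 1 array at each time, the 5 times served as the replicates. Every p-value below rests on the spread of the older minus adult difference between times after fracture, not between animals of 1 time.

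A fracture of a long bone heals through a sequence of tissues. Blood clot and inflammation are followed by a cartilage callus, the cartilage is invaded by vessels and osteoclasts and replaced by woven bone, and the bone is then remodelled. The sequence is known to slow with age, and in rats of advanced age bridging of the fracture gap is much delayed.

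The tissue identity was checked on defining genes. Averaged over the 10 arrays, the signal was 24005 for Col1a1, the main collagen of bone, 11379 for Bglap, the osteoblast protein osteocalcin, 6050.3 for Col2a1, the collagen of cartilage, and 8123 for Acp5, the tartrate-resistant acid phosphatase of osteoclasts. Marrow and blood were present through Hbb, the beta chain of hemoglobin, at 15241. Skeletal muscle was present as well, with Acta1, its actin, at 21315. The defining transcription factor of Schwann cells, Sox10, averaged 5.65, below the floor of 20 that was set under all signals. Of 12 measured genes of Schwann cells and myelin, however, 6 averaged a signal of at least 200.

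The arrays of the 2 ages were alike in brightness. The median signal lay between 150.9 and 188.6 on the adult arrays and between 152.3 and 180.6 on the older arrays, and between 12.4 and 17.3% of the signals of an array were below 20. Over the 4055 brighter probe sets, those whose signal averaged 200 or more over the 10 arrays, the adult and older arrays of the same time correlated at r from 0.950 to 0.968, which describes likeness across probe sets and is no test. The ratio of the 3′ to the 5′ probe set of Gapdh, which increases when RNA is degraded or copied in part, was 1.56, 1.28, 1.44, 1.35 and 1.83 in adult rats and 1.33, 1.20, 1.29, 1.20 and 1.19 in older rats, in the order of the times. It was lower in the older rats in 5 of 5 pairs, and for actin the same ratio was lower in the older rats in 4 of 5 pairs. The part of RNA quality in the differences reported here was not tested.

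The first comparison asked which mRNAs were at another level in older than in adult rats throughout repair. Signals were put on the log2 scale after the floor, and each of the 8740 probe sets was fitted with limma with time as a block. No probe set passed an adjusted p of 0.05, with 0 higher (0%) and 0 lower (0%) in older rats, and the smallest adjusted p was 0.225. At an unadjusted p below 0.05 there were 177 higher (2.03%) and 290 lower (3.32%), 5.34% in all. The excess on the lower side came with dim signals, since the counts were 125 higher and 116 lower among the 4055 probe sets whose signal averaged 200 or more, and 176 higher and 178 lower among those never below 20. Without the 2-week pair they were 334 higher and 386 lower, 720 in all. The methods' t-test on the same differences gave 198 at an unadjusted p below 0.05 and 0 after Benjamini-Hochberg adjustment. Older rats were above adult rats at all 5 times for 167 probe sets (1.91%) and below at all 5 times for 313 (3.58%).

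The design limited which differences could be seen. With 5 pairs an exact two-sided permutation test cannot go below 0.0625, and the fit had 4 residual degrees of freedom. The intervals nevertheless bounded most differences. For 3736 of the 4055 brighter probe sets (92.1%) the 95% confidence interval of the mean difference lay inside 2-fold in either direction, and the median margin of that interval was 1.29-fold. The mean difference itself had a median size of 0.12 on the log2 scale among these, and 12 of them (0.296%) exceeded 2-fold. The plot of difference against signal shows how narrow the band of brighter probe sets was.

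**Figure D1:**
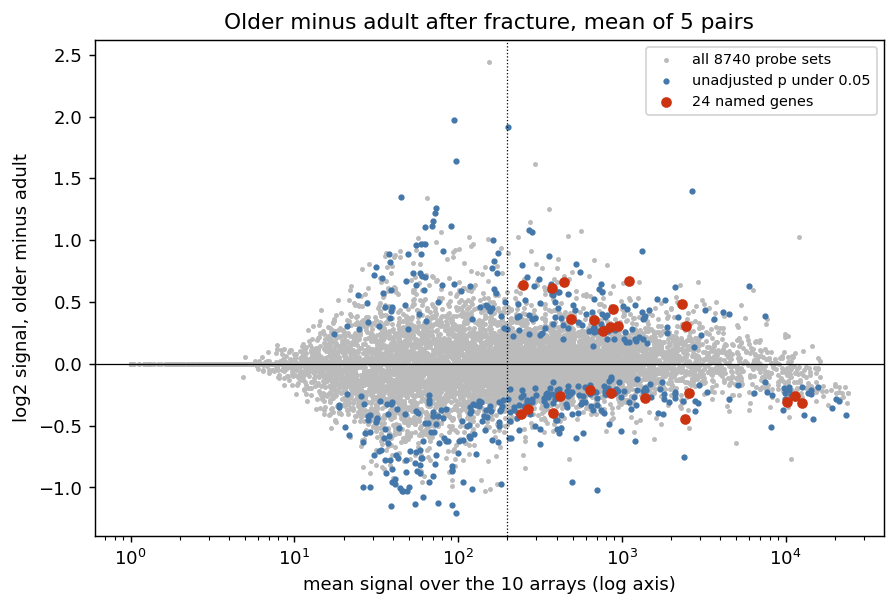
Each point is 1 of the 8740 probe sets, with its mean signal over the 10 arrays on a log horizontal axis and its mean older minus adult difference over 5 pairs in log2 units on the vertical axis, with the 24 named genes in red and the other probe sets of unadjusted p below 0.05 in blue. To the right of the dotted line at a signal of 200 nearly all points lie within 1 log2 unit of 0, and the named genes lie between -0.44 and 0.67.

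Since nothing was called, the genes named next are those with the smallest p-values among brighter probe sets of 1 gene with the same sign at all 5 times, 12 in each direction. None passed the adjusted test. Of the 12 that were higher in older rats, 3 encode secreted proteins that the study had also listed as nerve-related, namely Thbs4, Spon1 and C1s. The study listed them for a greater rise in older rats, partly on these arrays, so this overlap is not independent evidence. In the other direction, Pth1r, the receptor for parathyroid hormone and its related peptide on bone and cartilage cells, had the largest difference.

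Thbs4 encodes thrombospondin 4, a matrix glycoprotein of tendon, muscle and nerve. Its signals at 3 days and 1, 2, 4 and 6 weeks were 1019, 2756, 2529.6, 1498 and 1999.8 in adult rats and 1414, 3662, 3576, 2488 and 2454 in older rats. Older rats were higher at every time, while the ranges of the 2 ages overlapped, and the gene varied more over time than between ages. The mean difference was 0.48 ± 0.07 on the log2 scale (SE, n = 5 pairs), a 1.40-fold level with a 95% interval of 0.30 to 0.66 on the log2 scale and a limma adjusted p of 0.683.

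C1s encodes a serine protease of the classical complement pathway. Its signals were 448, 1093, 1332, 639 and 755 in adult rats and 784, 2304, 1399, 1064 and 1189.9 in older rats. The pair at 2 weeks differed little and the others were apart, which gave a mean of 0.67 ± 0.15 on the log2 scale and a limma adjusted p of 0.881. Spon1 encodes F-spondin, a secreted protein that guides axons. The Spon1 signals were 75.5, 636, 294, 204 and 254 in adult rats and 103, 1034, 388, 421 and 351 in older rats, a mean difference of 0.61 ± 0.12 on the log2 scale with a limma adjusted p of 0.863. Both genes were dimmest at 3 days at either age, and their age ranges overlapped.

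The largest of the remaining log2 differences among the higher genes belonged to Crabp2, a carrier of retinoic acid inside cells, at 0.66 ± 0.15, and to Kcnj15, an inward-rectifier potassium channel, at 0.64 ± 0.16. Emd, the inner nuclear membrane protein emerin, was 0.45 ± 0.10 higher, but its second and dimmer probe set gave 0.03 and changed sign between times. Wfdc1, a secreted protein with a protease inhibitor fold, was 0.36 ± 0.10 higher. For Ndufa4l2, a mitochondrial protein known to respond to low oxygen, the brightest probe set gave 0.35 ± 0.08 and its 4 other probe sets gave 0.15, 0.60, 0.45 and 0.37. The 5 probe sets of this gene thus had means of the same sign, though only the brightest was higher in 5 of 5 pairs. App, the amyloid precursor protein, Tmem47, a membrane protein of cell junctions, and Ltbp1, a binding protein of latent TGF-beta in the matrix, differed by 0.31, 0.30 and 0.30 on the log2 scale. The second probe set of App gave 0.20 with 3 of 5 pairs higher. Gstm2, a glutathione transferase, differed by 0.27, while its second probe set gave 0.00.

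Among the lower genes, Pth1r had signals of 3948, 2742, 2679, 2466 and 2074 in adult rats and 2961, 1652, 2144, 1879 and 1625 in older rats. Every older value was below its adult partner, and the mean difference was -0.44 ± 0.07 on the log2 scale (95% interval -0.63 to -0.26, limma adjusted p = 0.811). The older array was already lower without fracture. At 0 time the signal was 975 in the adult and 512 in the older control, a log2 difference of -0.93 with 1 array per age. A second bright probe set of Pth1r gave -0.20 with 4 of 5 pairs lower, and the dimmest, at a mean signal of 107, gave 0.22. The direction thus held on both bright probe sets, at a smaller size on the second.

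Tor1aip1, a protein of the inner nuclear membrane, had the smallest spread of the lower genes, at -0.24 ± 0.03 on the log2 scale with a limma adjusted p of 0.683. Its second probe set gave -0.14 and was lower in 3 of 5 pairs. Rpsa, a protein of the small ribosomal subunit, was at -0.31 and again at -0.23 on its second probe set, lower in 5 of 5 pairs on both. Rpl41, a protein of the large subunit, was at -0.24. Eef2, the elongation factor that moves the ribosome along the mRNA, was at -0.26 on its brightest probe set, but its 3 other probe sets gave 0.64, 0.66 and 0.10, so that no direction could be given for this gene. Polr3a, the largest subunit of RNA polymerase III, was at -0.40.

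The remaining lower genes were Lhb, the beta chain of luteinizing hormone, at -0.40, Scaf4, a protein that binds RNA polymerase II, at -0.37, and Cst3, the secreted protease inhibitor cystatin C, at -0.31. The second probe set of Cst3, also bright, gave -0.11 with 3 of 5 pairs lower. Lamb2, a laminin chain of basement membranes, was at -0.28, against 0.05 on its second probe set. Pom121, a nuclear pore protein, was at -0.26 and Rab28, a small GTPase, at -0.21 on the log2 scale. The second probe set of Rab28 gave -0.10 with 3 of 5 pairs lower. Lhb, a pituitary hormone gene, averaged a signal of 244 here. Its second probe set averaged 31.7 and gave -0.27 with 3 of 5 pairs lower, so the identity of the signal is uncertain. The plot of pair differences shows how the 24 genes were spread over the 5 times.

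**Figure D2:**
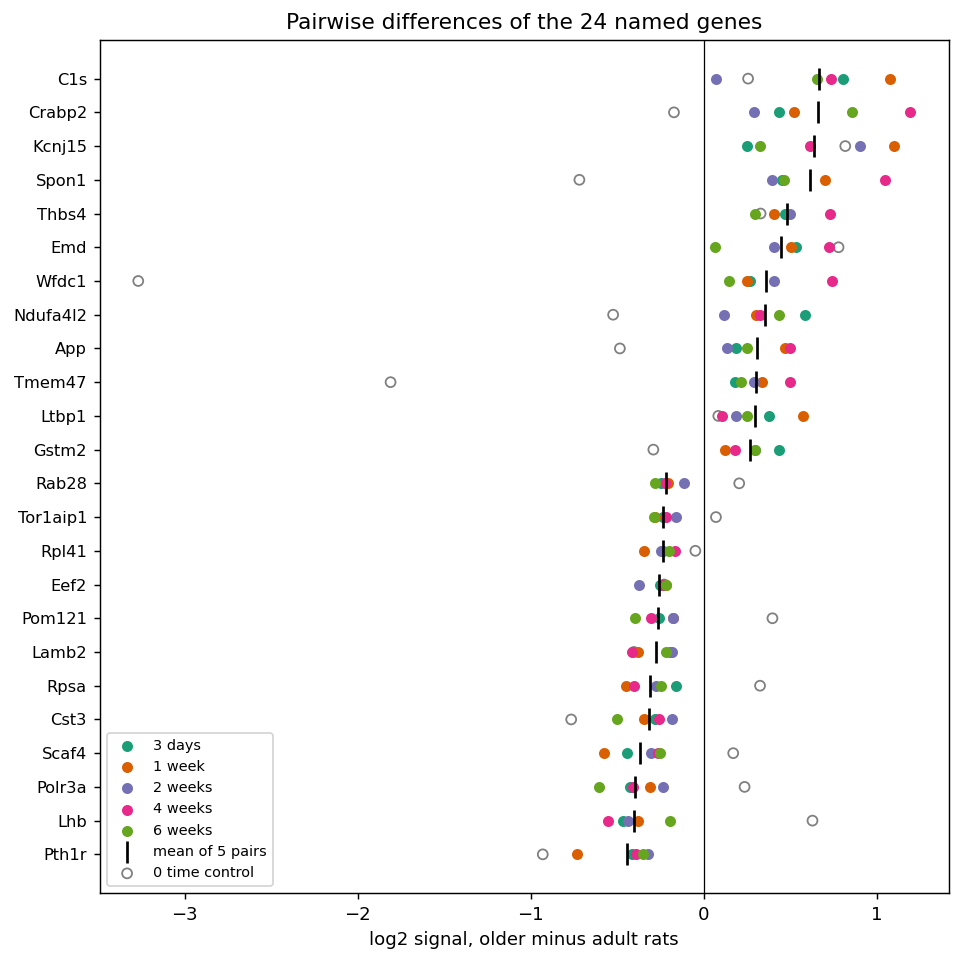
For each of the 24 genes the filled points are the older minus adult differences at the 5 times in log2 units, the upright line is their mean and the open circle is the difference between the 0 time controls. By the rule that chose the genes all 5 filled points lie on one side of 0, while the open circle lies on the other side for several of them, farthest for Wfdc1 at -3.27.

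The 12 brighter probe sets beyond 2-fold included Ptgs2 and Fn1, named here after their values were seen. Ptgs2, the inducible cyclooxygenase of prostaglandin synthesis, had signals of 681, 45.2, 80.7, 42.2 and 19.7 in adult rats and 682, 989, 151, 43.2 and 25.3 in older rats. The ages were alike at 3 days, when the gene was at its adult peak, and the difference lay at 1 week. A probe set of Fn1, the matrix protein fibronectin, was at 23.7, 320, 204, 28.3 and 19.2 in adult rats and 168, 713, 155, 239 and 149.8 in older rats. Its mean difference was 1.91 ± 0.62 on the log2 scale, with a limma adjusted p of 0.881 and the opposite sign at 2 weeks. The brightest Fn1 probe set had a mean difference of 0.22, so these probe sets of 1 gene disagreed in size.

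Genes were next grouped by lists of cell types, matrix, signalling and metabolism, of which 537 of 769 listed genes were measured. No list held a gene that passed the adjusted test (0% in either direction), and the lists are described by the sign and median of their members. The median over all 8740 probe sets was -0.01 on the log2 scale. Of all probe sets 4261 were counted as higher and 4479 as lower in older rats. These counts gave a sign even to probe sets at or below the floor on every array, which have no measured difference. They are therefore not exact counts of direction, and the sign counts of lists with members at the floor have the same limit. Of 11 cartilage genes, 7 were higher in older rats, with a median of 0.11. Of 13 bone matrix and osteoblast genes, 7 were lower, with a median of -0.13. The heat map of list medians gives these values at each time.

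**Figure D3:**
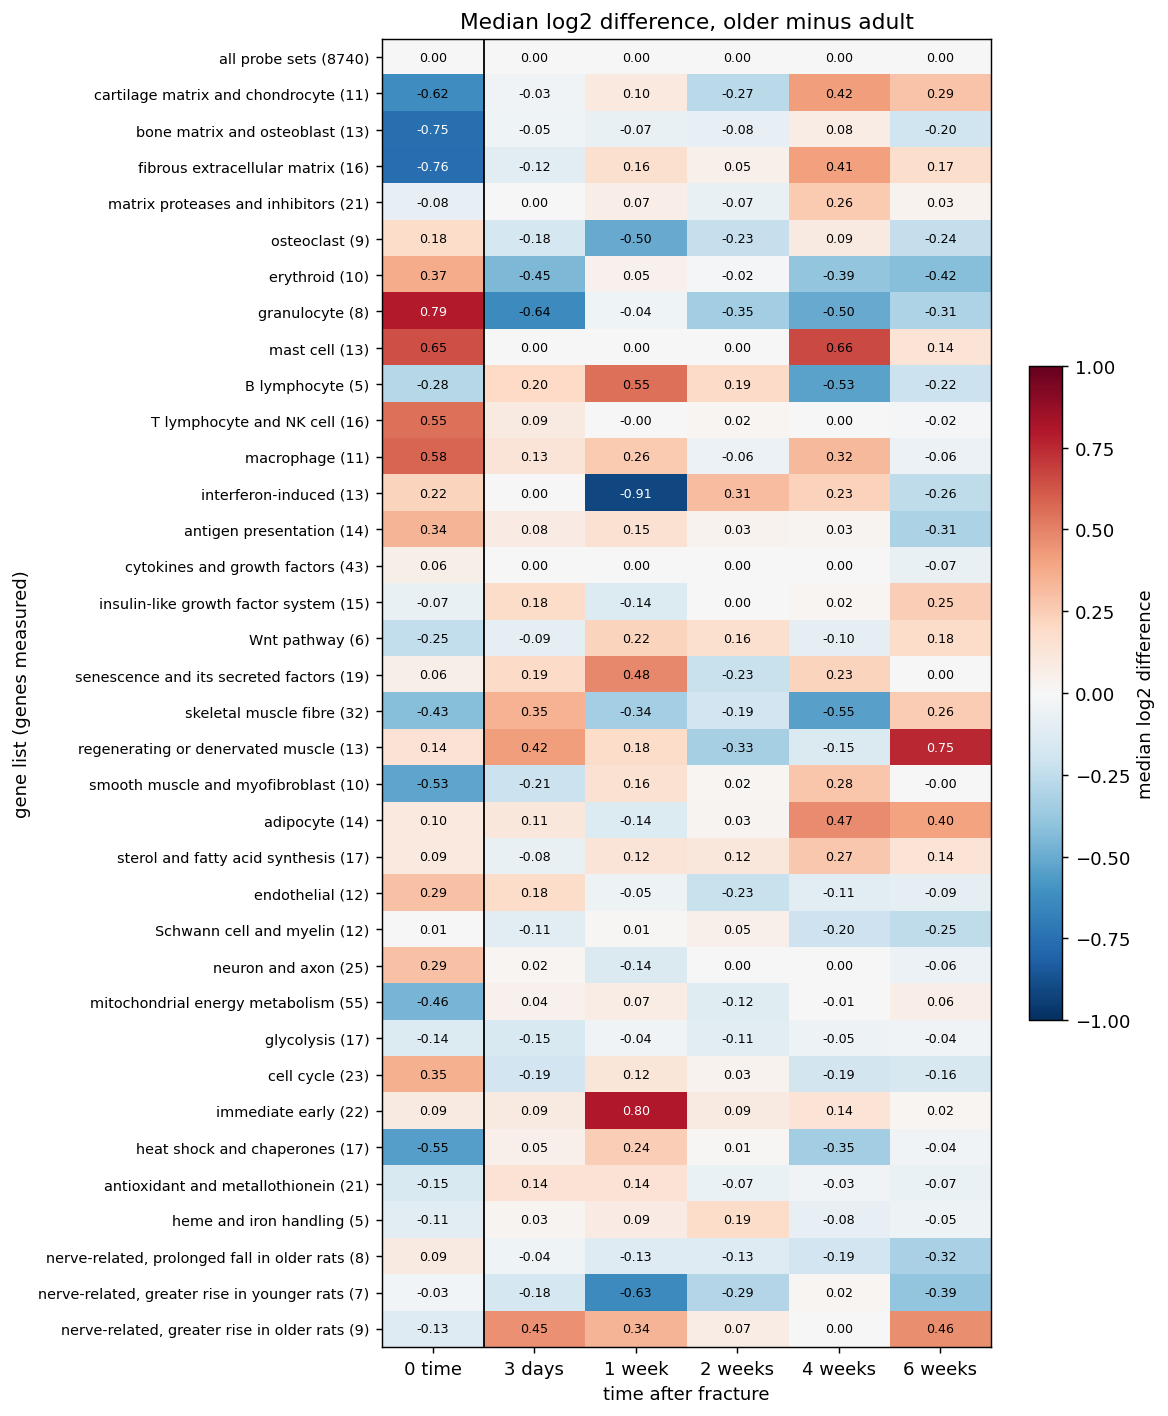
Rows are the gene lists and columns the 0 time control and the 5 times after fracture, and the colour is the median older minus adult log2 difference over the measured members of a list at that time, with 1 array per age. The granulocyte list is below 0 at all 5 times after fracture, while the immediate early list stands out at 1 week.

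Among matrix genes, Comp, the cartilage oligomeric matrix protein, had signals of 557, 1173, 1894, 457 and 585 in adult rats and 604, 1608, 2118, 847 and 873 in older rats. Its mean difference was 0.44 ± 0.13 on the log2 scale with a limma p of 0.0205 before adjustment and 0.881 after. Mmp14, a membrane protease that degrades collagen, had signals of 4726, 7112, 7920.0, 2896 and 2138 in adult rats and 6574, 8595, 8518, 6666 and 4608 in older rats. The Mmp14 difference was 0.63 ± 0.20 on the log2 scale, 0.0268 before limma adjustment, and its pairs at 4 and 6 weeks were the farthest apart. Of 16 genes of the fibrous extracellular matrix, 14 were higher in older rats by their mean over the times, with a median of 0.18. Only 1 of them was above in all 5 pairs, against 1.91% of all probe sets. At 3 days 5 of the 16 were higher, with a median of -0.12, and at 4 weeks 14, with a median of 0.41.

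Igf1, a growth factor of bone and muscle, had signals of 918, 4466, 1267, 1383 and 760.4 in adult rats and 1435, 5009, 2675, 1517 and 1617 in older rats, higher in 5 of 5 pairs with a mean difference of 0.62 ± 0.19 on the log2 scale (limma adjusted p = 0.881). The 15 measured genes of the insulin-like growth factor system had a median of 0.05, with 9 higher and 6 lower. Igf1 was 1 of its 2 genes above in all 5 pairs, beside 1.91% of all probe sets. In the Wnt list, 6 of 26 listed genes were measured, and Gsk3b, the kinase that marks beta-catenin for degradation, was at -0.25 ± 0.09. The cytokine and growth factor list had 21 genes counted as higher and 22 as lower of 43, and many of its genes were at the floor.

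Osteoclast and granulocyte genes were mostly lower in older rats. In a sample of whole tissue, fewer cells of a type and less RNA per cell cannot be told apart. Acp5 had signals of 738, 3574, 16956, 11336 and 12628 in adult rats and 431, 1761, 11078, 12044 and 10685 in older rats. It was lower in older rats at 3 days and 1 and 2 weeks, and close to the adult level at 4 and 6 weeks. The mean difference was -0.51 ± 0.18 on the log2 scale, with a limma adjusted p of 0.881. Of the 9 measured osteoclast genes, 8 were lower, with a median of -0.09.

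S100a9, a calcium-binding protein of neutrophils, had signals of 575, 671, 324, 2093 and 4053 in adult rats and 418, 618, 243, 908 and 2169.8 in older rats, lower at all 5 times with a mean difference of -0.62 ± 0.18 on the log2 scale (limma adjusted p = 0.881). RatNP-3b, a neutrophil defensin, had signals of 796, 1292, 409, 4594 and 8408 in adult rats and 341, 1233, 325, 1798 and 4840.3 in older rats, with a mean difference of -0.75 ± 0.22 and a limma adjusted p of 0.881. Both genes were brightest at 4 and 6 weeks at either age, and the older values were below their adult partners, closest at 1 week. Of the 8 granulocyte genes measured, 7 were lower and 3 were lower in all 5 pairs, beside 3.58% of all probe sets, with a median of -0.45. At 0 time the same list was higher in older rats, with a median of 0.79 and 1 array per age.

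Other blood and immune lists had smaller medians. The erythroid list had a median of -0.13, with Rhag, a membrane protein of red cells, at -0.60 ± 0.21. The macrophage list had 9 of 11 genes higher with a median of 0.20, and the antigen presentation list had a median of 0.03. In the mast cell list 11 of 13 genes were counted as higher, with a median of 0.22. The median of that list was 0.66 at 4 weeks and 0.00 at the 3 earlier times. Of these 13 genes only 5 averaged a signal of at least 200. At 1 week 3 of them were higher, 4 lower and the others equal after the floor. For B lymphocytes the median was -0.06 over 5 genes, and for T lymphocytes and NK cells 0.01 over 16. Cell cycle genes were lower in 17 of 23 cases with a median of -0.07, led by Bub1b, a mitotic checkpoint kinase, at -0.63 ± 0.19, and Mcm5, a subunit of the replicative helicase, at -0.36 ± 0.09.

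Lists of tissues beside the callus were also small in their medians. Mitochondrial energy metabolism stood at 0.02 over 55 genes, glycolysis at -0.04 over 17, endothelial genes at 0.00 over 12 and skeletal muscle fibre genes at -0.09 over 32. The Schwann cell and myelin list had a median of -0.13 over 12 genes, with Mbp, the myelin basic protein, at -0.31 ± 0.10. Senescence genes and their secreted factors were higher in 14 of 19 cases, with a median of 0.12.

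The largest medians of any list at a single time after fracture were at 1 week, where there was 1 array per age and therefore no test. The older array was at least 2-fold above the adult array for 293 probe sets (3.35%) and at least 2-fold below for 360 (4.12%). Of the 22 measured immediate early genes, the transcription factors and regulators switched on within minutes of a stimulus, 9 were at least 2-fold above and 0 at least 2-fold below, with a median of 0.80. Of the 13 interferon-induced genes, 6 were at least 2-fold below and 0 at least 2-fold above, with a median of -0.91. At any size 9 of them were lower and 3 higher. The medians of these 2 lists at the other 4 times lay between 0.02 and 0.14 and between -0.26 and 0.31.

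Promoter sequence around recognised motifs is shown for some genes of these 2 lists and for Il6, since the lists lay on opposite sides of 0 at 1 week. A link between the motifs and the 1-week values was not tested. RefSeq promoters on rat build GRCr8, from 250 bases before to 50 bases after each start, were searched on both strands, with overlapping matches counted once per promoter, for the cAMP response element (TGACGTCA), the CArG box that binds serum response factor, and the core of the interferon-stimulated response element (GAAA, any 2 bases, GAAA). Of the 22 immediate early genes 14 had a promoter in the table, and 4 of these held a CArG box (28.6%, against 1.64% of all 33469 promoters) and 2 a cAMP response element (14.3%, against 1.83%). Of the 13 interferon-induced genes 12 had a promoter, and 8 held the interferon core (66.7%, against 3.92%). Both lists were drawn up from known induction, so these shares describe them and test nothing. In the windows of 30 bases, written 5′ to 3′ on the strand of the gene, the motif is in capitals. The first 2 hold the cAMP response element, the third a CArG box and the last 4 the interferon core, which reads TTTC, any 2 bases, TTTC where it lies on the other strand.
Il6: tggatgctaaaTGACGTCAcattgtgcaat
Dusp1: ggcagggcgggTGACGTCAccacccggtca
Egr2: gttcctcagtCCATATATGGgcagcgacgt
Rsad2: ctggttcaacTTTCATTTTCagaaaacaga
Cxcl10: cgctttgGAAAGTGAAActtaactcactca
Irf7: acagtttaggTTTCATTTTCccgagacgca
Gbp2: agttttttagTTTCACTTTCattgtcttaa
These windows lie at chr4:5894719-5894748 for Il6 and chr6:48788248-48788277 for Rsad2 on the minus strand, and at chr10:17184718-17184747 for Dusp1 and chr14:15988816-15988845 for Cxcl10 on the plus strand. The Egr2 window is at chr20:21054505-21054534 and the Irf7 window at chr1:205800073-205800102, both minus, and the Gbp2 window at chr2:234005686-234005715, plus.

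Il6, an inflammatory cytokine that is itself outside the immediate early list, had signals of 886, 75.4, 62.9, 12.7 and 14.3 in adult rats and 732, 1059.7, 21.1, 23.4 and 8.30 in older rats. The ages were alike at 3 days, and at 1 week the adult signal had dropped to 75.4 while the older signal was 1059.7. Fos, a subunit of the AP-1 transcription factor, was at 1602, 1490.1, 2139, 1601 and 1721 in adult rats and 2579.6, 4289.9, 2099, 2221 and 1754 in older rats. Nr4a1, an orphan nuclear receptor, was 578 in the adult and 2728 in the older array at 1 week, a difference of 2.24 on the log2 scale. Each of these 3 genes was apart at 1 week by more than at any other time after fracture.

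Dusp1, a phosphatase that turns off MAP kinases, was 467 and 1245 at 1 week in adult and older rats. Atf3, a stress-induced transcription factor, was 329.7 and 725, and Ier3, an early response gene, 404 and 941. Ccl2, the chemokine that attracts monocytes, was 766 and 2442, and Hmox1, the enzyme that breaks down heme, 1223 and 2986. On the same arrays Hbb was 1634 and 5009, and the part of blood in the 1-week differences was not tested. In these genes the older array was the brighter one throughout.

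Rsad2, the antiviral enzyme viperin, was 273 in the adult and 59.8 in the older array at 1 week. Cxcl10, a chemokine induced by interferon, was 434 and 114, and Mx1, an antiviral GTPase, 426 and 171. The transcription factors Stat2, at 407 and 198, and Irf1, at 1023 and 508, were lower as well. The genes named here are all on the lower side, while 3 of the 13 list members were higher. With 2 rats in each pool and 1 pool per age, these values describe the 2 arrays and cannot be extended to the ages.

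**Figure D4:**
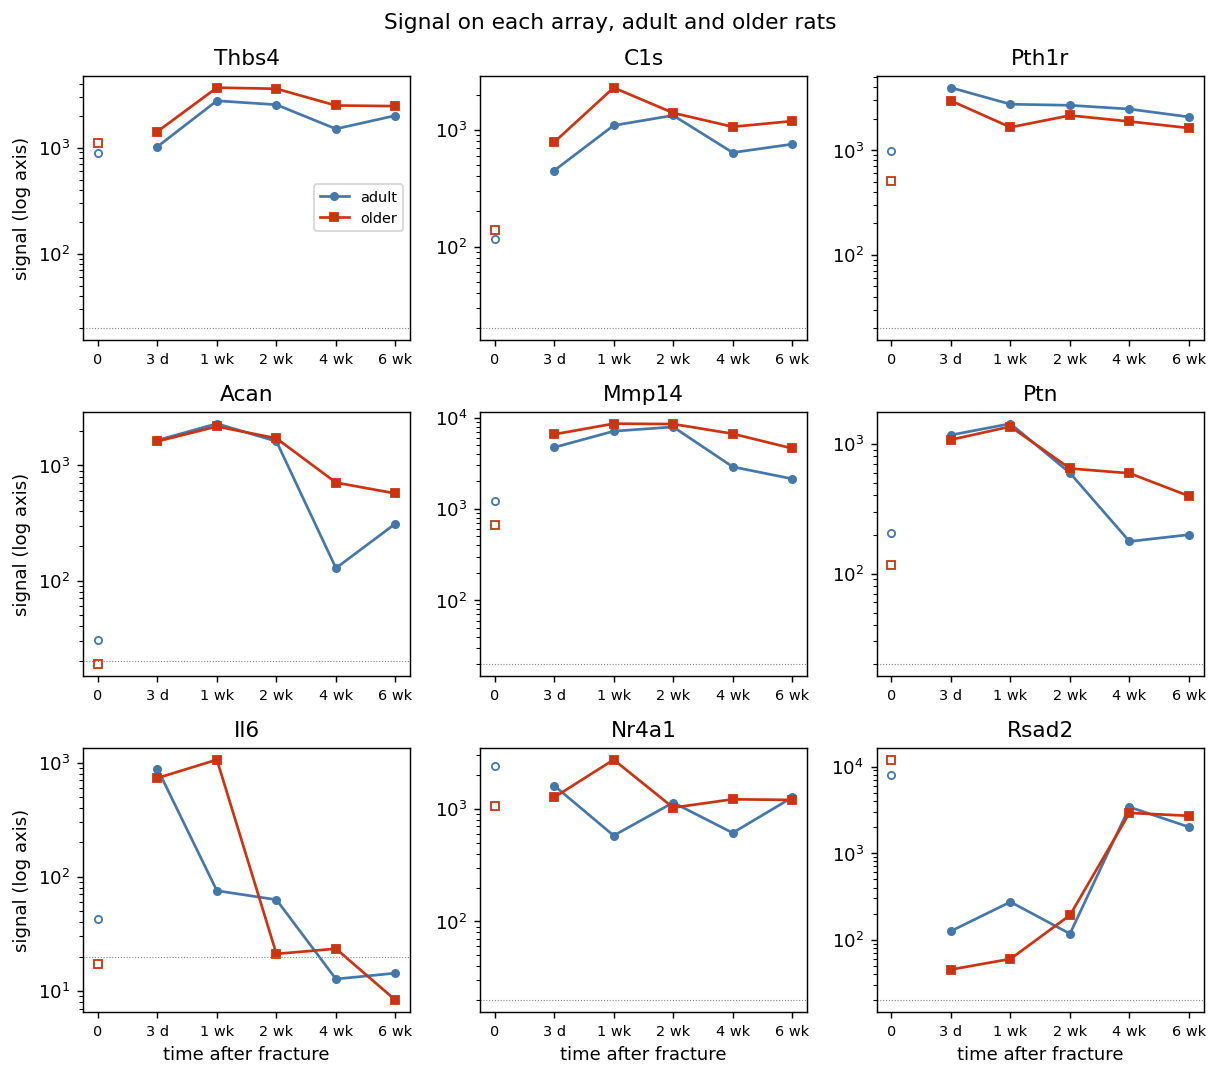
Signal on a log axis against time after fracture for 9 genes, with 1 array per point, adult rats as circles and older rats as squares, open symbols for the 0 time controls, times placed at equal distances and the floor of 20 as a dotted line. The older line runs above the adult line at all 5 times for Thbs4 and C1s and below it for Pth1r, whereas the lines part at 4 weeks for Acan and Ptn and at 1 week for Il6 and Nr4a1, and for Rsad2 the older line is lower at 3 days and 1 week.

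At 4 weeks the older array was at least 2-fold above the adult array for 330 probe sets (3.78%). Of 11 cartilage genes 3 were among them, and 8 were higher at any size, with a median of 0.42. Acan, the large proteoglycan aggrecan of cartilage, had signals of 1652, 2302, 1618, 128 and 312 in adult rats and 1616, 2177, 1717, 709 and 570.4 in older rats. The difference was 0.09 on the log2 scale at 2 weeks and 2.47 at 4 weeks, while the limma test of late against early times gave 1.68 ± 0.53 with an adjusted p of 0.871. Chad, a leucine-rich cartilage protein, was 266 and 708 at 4 weeks, and Fmod, a small proteoglycan that binds collagen and the other cartilage gene at 2-fold or more, 637 and 1762. S100b, a calcium-binding protein of chondrocytes and Schwann cells taken from the Schwann cell list, was 163 and 722. Lum, a proteoglycan related to Fmod, was 2189 and 5161, the 1 of 16 fibrous matrix genes at 2-fold or more. Acan, Chad, Fmod, S100b and Lum were named after their values were seen, as were the genes given at 1 week and at 3 days.

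Of the 32 muscle fibre genes, 8 were at least 2-fold above on the older array at 3 days and 1 at least 2-fold below, beside 3.1% and 2.56% of all probe sets, with 1 array per age and no test. Those picked out after their values were seen include Myl3, a slow myosin light chain, at 3.32 and Myh7, the slow myosin heavy chain, at 2.63 on the log2 scale. Myl2, another slow light chain, was 6.50 in the adult and 329 in the older array. Myh4, a fast myosin heavy chain, was the gene below, at 7197 in the adult and 1325 in the older array. The 32 fibre genes had a median of 0.35 at 3 days and -0.55 at 4 weeks, and their signals reached 21315 on average for Acta1. The part of muscle in the other differences was not tested.

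The second comparison asked whether the older minus adult difference at 4 and 6 weeks differed from that at 3 days to 2 weeks. At an adjusted p of 0.05 limma called 3 probe sets, all lower late (0.0343%), and 0 of them were among the brighter probe sets. Testin, a Sertoli cell protein, gave -0.75 on the log2 scale (adjusted p = 0.00329) and Mfhas1, a leucine-rich repeat protein, -0.44 (adjusted p = 0.0414). The third probe set, with no gene symbol here, gave -0.36 (adjusted p = 0.0367). Their mean signals were 15.3, 16.8 and 15.5, below the floor of 20, which fixed nearly all early values of both ages to the same number. Testin read 16.2, 10.5, 6.9, 33.7 and 33.5 in adult rats and 13.8, 6.5, 10.5, 10.5 and 10.4 in older rats. All 3 calls were lost with a floor of 1, and without the 6-week pair, which leaves 1 late pair, the count was 184.

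Of the brighter genes none was called, and those with the smallest p-values are given as values. Ptn, pleiotrophin, a heparin-binding growth factor, had signals of 1171, 1433, 597, 177 and 199 in adult rats and 1077, 1361, 646, 594 and 396 in older rats, and its age difference was 1.40 ± 0.27 on the log2 scale larger late than early (limma adjusted p = 0.659). Mmp14 gave 0.87 ± 0.15. Id2, an inhibitor of helix-loop-helix transcription factors, gave 0.68, and Ece1, which activates endothelin, 0.46. Ins1, insulin, gave 0.94 on a probe set whose 2 partners averaged signals of 100.4 and 29.6, so the identity of that signal is uncertain. In the other direction Cd24, a glycoprotein of immature blood cells, gave -0.87 and Mgst2, a microsomal glutathione transferase, -0.51. Mep1a, a metalloprotease, gave -0.74, B4galt6, a galactosyltransferase of glycolipid synthesis, -0.73, and Gsk3a, a kinase of glycogen metabolism, -0.36.

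The third comparison asked whether the difference between the ages after fracture was the one already present at 0 time. At an adjusted p of 0.05 limma called 242 probe sets whose older minus adult difference was higher after fracture than at 0 time (2.77%) and 149 for which it was lower (1.70%). The test rested on 1 control array per age, so the difference between those 2 arrays has no replicate. The 0 time pair was the least alike of the 6, at r = 0.934 over the brighter probe sets, with 13.8% of all probe sets 2-fold or more apart, against 5.66 to 8.80% after fracture.

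Of the 5 higher calls named by the rule, 3 were matrix genes. At 0 time the signal of Postn, periostin of the periosteum and callus, was 2012 in adult and 300.3 in older rats, and after fracture it was 6585, 10961, 8149, 2690.5 and 3515 in adult and 6978, 9596, 9569.9, 4571 and 3636 in older rats. The arrays of the 2 ages were thus closer after fracture than the single arrays at 0 time. The older minus adult difference was higher after fracture by 2.93 ± 0.36 on the log2 scale (limma adjusted p = 0.0148). Lox, the enzyme that crosslinks collagen, was 338 and 56.1 at 0 time, with a change of 2.77 ± 0.38, but its 3 other probe sets gave 0.57, 0.93 and -0.30. Col11a1, a collagen of cartilage and early bone, was 193 and 22, with a change of 3.09 ± 0.24 and 1.05 on its second probe set. The call of Postn was lost without the 3-day pair, without the 2-week pair and without the block, and that of Lox without the 1-week or the 4-week pair, among others.

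Calls were higher for 4 of the 16 fibrous matrix genes and 3 of the 13 bone genes, beside 2.77% of all probe sets, and 0 of either were called lower. Col3a1, a collagen of early callus, changed by 2.50 on the log2 scale (limma adjusted p = 0.00685), Col5a2 by 2.24, Col1a1 by 1.90 and Col1a2 by 1.49. The Col1a1 signal at 0 time was 35960.0 in the young control of 6 weeks of age, 16366 in adult and 3711 in older rats, so that it was lower at each greater age over these 3 arrays. Other calls did not all have this order. Bmyc was at 353 in the young control, below its adult signal of 605, and the lower calls named below differed as well. After fracture the mean Col1a1 difference between older and adult rats was -0.24 ± 0.11. The median change of the fibrous list was 0.96 and of the bone list 0.62, beside -0.01 for all probe sets. Other lists moved on the same 0 time pair. The older control was lower for 29 of 32 muscle fibre genes, 46 of 55 mitochondrial genes and 15 of 17 heat shock genes, with median changes of 0.36, 0.50 and 0.62 after fracture. It was higher for 18 of 23 cell cycle genes and 12 of 16 T lymphocyte and NK cell genes, with median changes of -0.49 and -0.49. The part of these tissues in the matrix values was not tested.

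The higher group was completed by Bmyc and Wfdc1. Bmyc, a relative of the Myc transcription factor, was 605 and 32.5 at 0 time and changed by 3.99 ± 0.44 (limma adjusted p = 0.0100), whereas its other probe sets gave 0.09 and -0.33. Wfdc1 was 235 and 24.4 at 0 time, and changed by 3.63 ± 0.25 (limma adjusted p = 0.00146).

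Among the lower calls, C5ar1, the receptor for complement fragment C5a on neutrophils and macrophages, was 87.3 in adult and 866 in older rats at 0 time. After fracture its signals were 790.4, 666, 588, 477 and 481 in adult and 1163, 781, 567, 599 and 646 in older rats, and the age difference shrank, with a change of -3.01 ± 0.24 on the log2 scale (limma adjusted p = 0.00252). Its second probe set gave -0.48. Cpa3, the carboxypeptidase of mast cells, was 17.7 and 96.2 at 0 time with a change of -2.24 ± 0.37, but its call was lost in 12 of 13 alternatives, among them the omission of any 1 time. Another mast cell gene, the protease Mcpt1, was called in the other direction, at 1.95, and 0 of the 11 macrophage genes were called. Lcn2, the neutrophil protein lipocalin 2, changed by -1.90 (limma adjusted p = 0.0364). Of the 8 granulocyte genes 1 was called lower, beside 1.70% of all probe sets, and the median change of that list was -1.13.

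The other lower calls named were Apobec1, an RNA-editing deaminase, at -3.15 ± 0.34, Maz, a zinc finger transcription factor, at -2.12 ± 0.25, and Gpr176, an orphan receptor, at -2.04 ± 0.19, against -0.19 on its second probe set. The adult control was below 20 for Apobec1 and Cpa3, so the floor set part of their values. At 0 time the adult, older and young controls read 19.5, 186 and 337 for Apobec1 and 126, 626 and 700 for Maz. For Gpr176 they read 186.5, 884.5 and 713. The young control read 713.5 for C5ar1 and 149 for Cpa3. For each of these genes the adult control was the lowest of the young, adult and older controls, with 1 array per age. The call of Maz was lost without the 3-day pair and with a floor of 1, among others. Of the 391 calls, 307 had an array below 20 among the 12, and 319 had a mean signal under 200. Limited to probe sets never below 20, 41 were called, 29 higher and 12 lower.

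**Figure D5:**
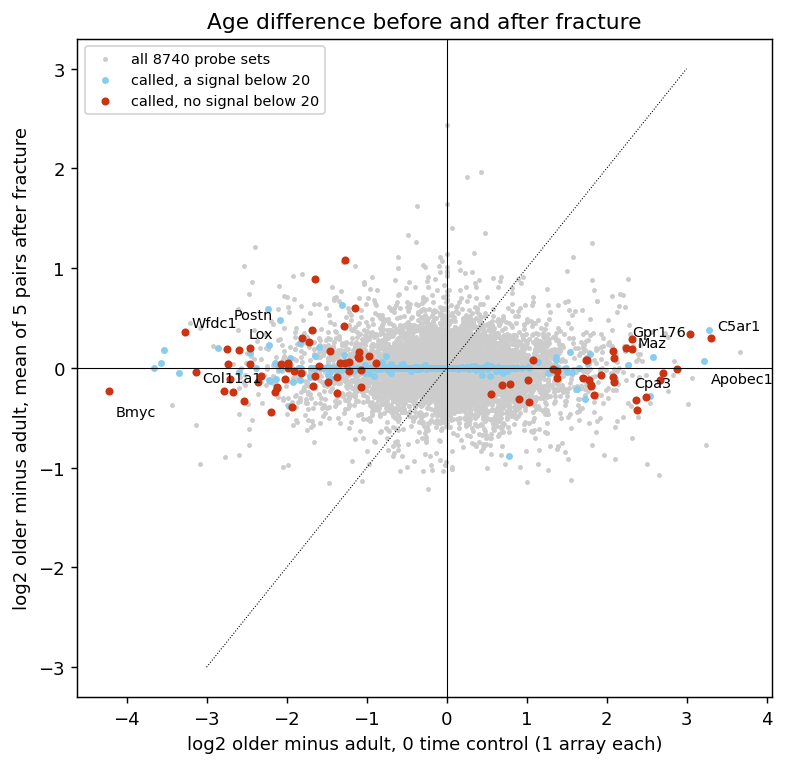
Each point is a probe set, with the older minus adult difference between the single 0 time controls on the horizontal axis and its mean over the 5 pairs after fracture on the vertical axis, both in log2 units, called probe sets in colour and equal differences on the dotted line. The vertical spread is narrower in part because 5 pairs were averaged. Nearly all of the 391 called probe sets lie closer to 0 on the vertical than on the horizontal axis. The test itself favours this placement, because it picks probe sets whose single 0 time difference lies far from the differences after fracture. The placement therefore cannot show whether the ages became more alike after fracture.

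The study named 24 nerve-related genes in 3 lists by their course over age, partly on these arrays, so the directions below are not independent evidence. None passed the adjusted test of the first comparison. The first list, for a prolonged fall in older rats, had 5 of 8 genes lower with a median of -0.19. Nrgn, the calmodulin-binding protein neurogranin, had signals of 108, 22.9, 30.2, 75.2 and 229 in adult rats and 34.5, 17.5, 21.9, 31.5 and 97.6 in older rats. It was lower at every time, with a mean difference of -0.96 ± 0.25 on the log2 scale (limma adjusted p = 0.881). Lypd8l1, listed as RoBo-1, a surface protein of bone, had signals of 228, 352, 257, 674 and 1077 in adult rats and 226, 242, 203, 317 and 699 in older rats, with a difference of -0.52 ± 0.16 and a limma adjusted p of 0.881. These 2 genes were the 2 of 8 lower in all 5 pairs, beside 3.58% of all probe sets.

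The others of that list were closer to 0. Gabbr2, a subunit of the GABA-B receptor, was at -0.26, Npy, neuropeptide Y, at -0.24 and Prlhr, the receptor of prolactin-releasing peptide, at -0.15. Nnat, neuronatin, was at 0.21 and Sncg, gamma-synuclein, at 0.02. Acsl6, a fatty acid ligase of brain, was at or below the floor on all 10 arrays, so it has no measured difference.

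The second list, for a greater rise in younger rats, had 5 of 7 genes lower with a median of -0.32 and 0 with an unadjusted p below 0.05. Its values were -0.53 for S-SCAM, a synaptic scaffold protein, -0.39 for Cdk18 and 0.00 for Cdk17, both cyclin-dependent kinases, -0.36 for Ptprz1, a receptor phosphatase, and -0.32 for Slc6a15, an amino acid transporter of neurons. Nr4a3, an orphan nuclear receptor, was at 0.17 and Asic3, an acid-sensing channel, at 0.15. The third list, for a greater rise in older rats, had 8 of 9 genes higher with a median of 0.27, and Spon1, Thbs4 and C1s, already described, were the 3 above adult rats in all 5 pairs, beside 1.91% of all probe sets. Chrna1, the muscle acetylcholine receptor, was at 0.51, neurexin 1-beta, a synaptic adhesion protein, at 0.27, ania-4, a kinase-related transcript induced by activity, and Ntm, neurotrimin, at 0.20 each, Ncan, the proteoglycan neurocan, at 0.16 and Camk2b, a calmodulin-dependent kinase, at -0.06.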

How the data were processed

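RNA pooled from 2 rats per array was hybridised to Affymetrix rat expression arrays. The authors computed each signal with Affymetrix Microarray Suite and scaled every array to an average of 500. The deposited intensities were used as they stand, with no counts behind them, so the number of arrays limits the precision. The 59 control probe sets were left out, values below 20 were set to 20, and log2 was taken. Of the 8740 probe sets, 7006 had 1 gene symbol, 308 several and 1426 none, and 6985 of the 7006 gene identifiers were found in RefSeq. limma 3.58.1 in R 4.3.3 was fitted with an intensity trend, time as a block and Benjamini-Hochberg adjustment over all probe sets, and was tested on simulated data. Same-time arrays deviated together, with correlations of deviations from the age means of 0.820, 0.653, 0.345, 0.691 and 0.725. Where a gene had several probe sets the brightest stood for it. For each comparison, called probe sets of 1 gene with a mean signal of at least 200 (and, for the first comparison, 1 sign in all 5 pairs) were named by size, 12 or 5 per direction, filled by the smallest p-values. List members were named up to 4 if called or up to 2 by the largest difference, with all 24 nerve-related genes. Other genes were named after their values were seen. The members and lists were chosen with earlier results of these data known. The alternatives were other floors, offsets, scalings, filters and fits, the young arrays added, and each time left out. The young arrays after fracture were used only there.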

Additional observations from a re-analysis of the deposited data

Results flagged for a closer look

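In 59 groups of 5 pair differences (the 24 genes of the first comparison and 35 lists), the most extreme pair was checked for a gap to its neighbour above Dixon's 95% critical value, a limit that chance passes in about 1 group in 20. In 6 groups 1 pair stood apart. For genes this was Pth1r at 1 week, with -0.73 on the log2 scale, and Eef2 at 2 weeks, with -0.37. For list medians it was the immediate early list at 1 week, with 0.80, the mast cell list at 4 weeks, with 0.66, the antigen presentation list at 6 weeks, with -0.31, and the cytokine and growth factor list at 6 weeks, with -0.075. The last list had a median of 0.00 at the other 4 times, because many of its genes were at the floor.

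For the named genes the older minus adult difference after fracture was tested against that at 0 time and passed. The change on the log2 scale was 3.99 for Bmyc, 3.63 for Wfdc1, 3.09 for Col11a1, 2.93 for Postn and 2.77 for Lox. It was -3.15 for Apobec1, -3.01 for C5ar1, -2.24 for Cpa3, -2.12 for Maz and -2.04 for Gpr176. Each rests on 1 control array per age. Between early and late times the difference passed for Testin at -0.75, Mfhas1 at -0.44 and a probe set with no gene symbol here at -0.36, all at signals near the floor.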

How the results depend on the processing

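The first comparison gave 0 calls under all alternatives but one. Leaving out each time in turn gave 0 to 1 calls, the 1 being without the 6-week pair, and dropping the replicate block gave 0, with 204 probe sets at an unadjusted p below 0.05 against 467 with it. For the 24 named genes of that comparison and the 20 of the others, 588 values kept direction and side of the threshold and 27 lost the threshold. The other 1 reversed, namely Eef2 at 0.29 when the mean of its 4 probe sets was used. The 588 are no measure of how stable the calls were, because most of these genes had no call to lose. Only the named genes of the third comparison were called, and all 27 losses were theirs. Of these, 12 were for Cpa3, 5 for Lox, 4 for Maz and 3 for Postn, each out of 13 or 14 alternatives. The second comparison gave 3 calls, but 0 with a floor of 1, with an offset of 50, with median scaling, with a mean signal of at least 200, without the trend and over probe sets never below 20 (an alternative chosen after seeing the data). It gave 1 with quantile normalization, 8 without the replicate block and 0 to 184 when a time was left out, 133 without the 4-week and 184 without the 6-week pair. The third comparison gave 391 calls, 327 to 422 when a time was left out and 367 without the replicate block, but 233 with quantile normalization, 54 at a mean signal of at least 200, 41 over probe sets never below 20, 29 with an offset of 50 and 20 with a floor of 1. Of the last 2, 29 and 19 calls were shared with the 391. With a floor, a dim probe set can show nearly no spread. Signals near 20 therefore limit the calls of the last 2 comparisons.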

Other observations

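Several lists varied between times in ways the report did not describe, with 1 array per age at each time. Adipocyte genes were higher in older rats in 12 of 14 cases, with a median log2 difference of 0.17 over the 5 pairs and of 0.47 and 0.40 at 4 and 6 weeks, but at 1 week 10 of the 14 were lower, with a median of -0.14. Lpl, the lipase that frees fatty acids from lipoproteins, was at 0.43 ± 0.11 with a limma adjusted p of 0.881. Regenerating or denervated muscle genes had a median of 0.75 at 6 weeks and -0.33 at 2 weeks. Over the 5 pairs heat shock genes had a median of 0.06.

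The remaining lists had medians of 0.18 for matrix proteases and inhibitors, 0.02 for smooth muscle and myofibroblast genes, 0.12 for sterol and fatty acid synthesis, -0.10 for neuron and axon genes, 0.05 for antioxidant genes and 0.04 for heme and iron handling. Sod3, the extracellular superoxide dismutase, was at 0.42 ± 0.12 over the 5 pairs, and its older minus adult difference was higher after fracture than at 0 time by 1.70 ± 0.29 (limma adjusted p = 0.0462).

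The smallest p-value of the first comparison belonged to a probe set with no gene symbol here. Its mean difference was -0.88 on the log2 scale, with a limma adjusted p of 0.225. Among the brighter probe sets, 2 with no gene symbol here were higher in older rats at all 5 times, by 1.08 ± 0.10 and 1.06 ± 0.11 on the log2 scale. The signals of the first were 220, 205, 178, 146 and 105 in adult rats and 591, 400.1, 350, 282 and 222 in older rats.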
